A study of Bos taurus with 9 samples.

Results

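Guanylate-binding proteins (GBPs) were taken as the genes whose symbol is GBP followed by a number. The rule found 3 of the 17162 genes in the table, GBP4, GBP5 and GBP6, and each was described in all 9 libraries. A further 9 genes carry a symbol beginning with LOC but a description that names a guanylate-binding protein, so that the family held 12 genes in all. These 9 genes are not members under the rule and are described beside the 3 members.

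The cells were BEND, cultures from Holstein endometrium labelled as wild-type primary epithelial cells and grown in medium with serum. There were 3 libraries in each of 3 groups. CON cells were left untreated. GA cells were given E2 (estradiol) at 1 nM and P4 (progesterone) at 100 nM over 12 h, a duration taken from the methods. GB cells had the same hormone stage and then IFNT (interferon tau, the pregnancy signal of the ruminant conceptus) at 100 ng/mL for a further 12 h. The hormones are thus common to GA and GB, and IFNT was given only to GB. The collection times of CON and GA are not given separately in the sources used here, so IFNT and culture time cannot be told apart in the comparisons with GB. Nothing in the labels ties the cultures to separate animals, so p-values measure only the spread between these cultures.

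GBPs are large GTPases of the dynamin superfamily, and interferons are among their best known inducers in mammalian cells. They bind and hydrolyse GTP, assemble on the membranes of intracellular pathogens and their vacuoles, and several of them carry a lipid anchor that is added to a CaaX motif at the C-terminus. On bacterial surfaces human GBPs form a platform that recruits caspases of the inflammasome, and GBP5 has been linked to assembly of the NLRP3 inflammasome. In ruminants the conceptus delivers a type I interferon to the endometrium, and GBP genes are among the interferon-stimulated genes (ISGs) that a uterine cell can express.

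Levels are in FPKM, a fragment number divided by exon length and by the mapped reads of its library, so that different genes can be compared per length. The FPKM of a library summed to between 1395622 and 1442723. The table gives no read number, and a value of 0 means only that a gene is listed at 0. The epithelial markers KRT8, KRT18, KRT19 and CDH1 together reached only 0.43 to 1.38 FPKM in a library, while the 6 stromal fibroblast markers VIM, COL1A1, COL1A2, COL3A1, PDGFRB and DCN together reached 13788 to 16010. These transcripts did not bear out the epithelial label. The study checked its cultures for cytokeratin protein by immunofluorescence, which was not analysed here, and the cells are called BEND below.

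All 3 members were higher in GB than in every library without IFNT. GBP4 reached 137 FPKM, GBP5 reached 38.0 FPKM and GBP6 reached 11.7 FPKM on average in GB, whereas none of them exceeded 1.82 FPKM in CON or GA. Against a background of 13% of tested genes whose 3 GB libraries all lay above the 6 other libraries, 3 of 3 members and 8 of the 9 other GBP genes did so, of which LOC513659 was not tested. Differences were tested with limma on log2(FPKM + 0.5) in a single fit of the 9 libraries, and a gene was called a DEG at an absolute log2FC over 1 together with a Benjamini-Hochberg adjusted p below 0.05. All 3 members were DEGs in GB vs. CON, where 4.01% of the 12578 tested genes were called (2.94% higher in GB). All 3 were also DEGs in GB vs. GA, where 3.64% were called (2.66% higher in GB). The comparisons with GB share the GB libraries and are not independent of each other.

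**Figure D1:**
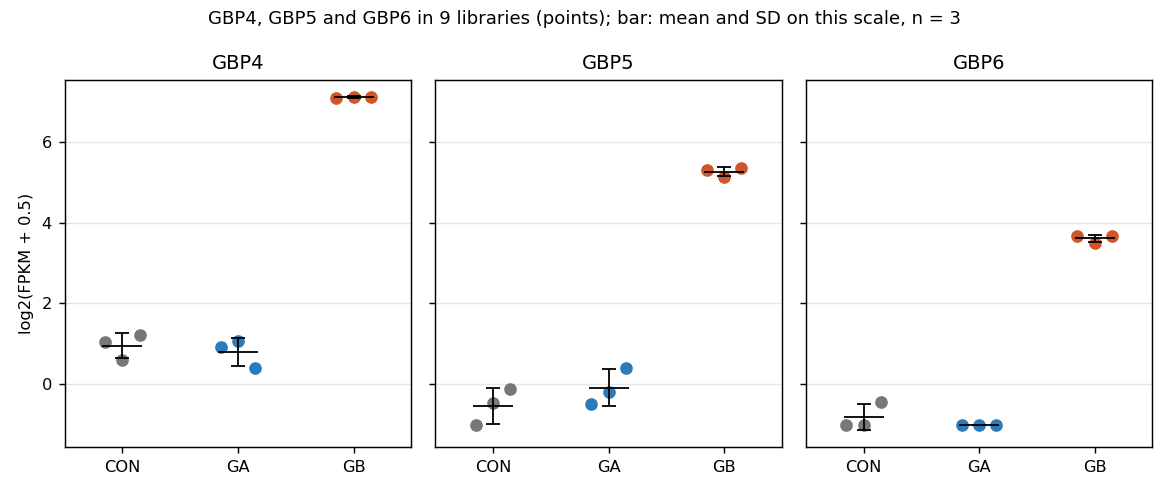
FPKM of GBP4, GBP5 and GBP6 on a log2(FPKM + 0.5) axis in the CON, GA and GB libraries, with 1 point per library and the mean and SD of each group of 3. In each panel the GB points lie above all CON and GA points, which overlap for GBP4 and GBP5, while the GA points of GBP6 all sit at 0 FPKM.

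GBP4 was the most abundant of the members in every library but GA3, where it equalled GBP5. In human cells GBP4 is a cytosolic member of the family that lacks the CaaX anchor. In CON the libraries read 1.58, 1.02 and 1.82 FPKM. In GA they read 1.4, 1.6 and 0.83 FPKM, and in GB 135, 138 and 138 FPKM. The CON and GA values overlapped, and the lowest GB value was 74.4 times the highest of the 6 others. Mean GBP4 in CON was 1.47 ± 0.411 FPKM (SD, n = 3), in GA 1.28 ± 0.400 and in GB 137 ± 1.67, which makes the GB mean 93.2 times that of CON and 108 times that of GA. On the log2(FPKM + 0.5) scale the log2FC was 6.15 in GB vs. CON (SE 0.19, adjusted p = 1.3e-08, limma) and 6.30 in GB vs. GA (SE 0.19, adjusted p = 1.1e-08, limma). Ordered by the size of the rise among the 12578 tested genes, GBP4 stood at 28 in GB vs. CON and at 25 in GB vs. GA. By mean level it stood at 11458 of the 17162 genes in CON and at 1627 in GB.

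GBP5, which in human cells carries a CaaX motif and is found at the Golgi, was close to 0 without IFNT. The CON libraries listed GBP5 at 0, 0.22 and 0.42 FPKM, and the GA libraries at 0.21, 0.38 and 0.83. In GB it was at 39.2, 34.7 and 40.1 FPKM. The lowest GB value was 41.7 times the highest of the others, that of GA3. The number of reads behind the values without IFNT is unknown and may be small. The highest of these values was 3.95 times the lowest above 0. The log2FC was 5.79 in GB vs. CON (SE 0.27, adjusted p = 2.7e-07, limma) and 5.35 in GB vs. GA (SE 0.27, adjusted p = 5.0e-07, limma). These log2FC depend on the pseudocount, and in GB vs. CON the value was 7.22 with a pseudocount of 0.1 and 5.02 with a pseudocount of 1. Among the rises of all tested genes GBP5 stood at 33 in GB vs. CON and at 41 in GB vs. GA.

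GBP6 was the least abundant member. Its row carries a protein that RefSeq now lists under LOC536917, and 2 RefSeq genes have GBP6 as a synonym, so the symbol alone does not fix the gene. The CON libraries listed GBP6 at 0, 0 and 0.24 FPKM, the GA libraries all at 0, and the GB libraries at 12.1, 10.9 and 12.2 FPKM. CON3 was thus the only library without IFNT in which GBP6 was above 0. In GB vs. CON the log2FC was 4.42 (SE 0.19, adjusted p = 1.8e-07, limma), 6.30 with a pseudocount of 0.1 and 3.57 with a pseudocount of 1. GBP6 was also a DEG in GB vs. GA (adjusted p = 1.3e-07, limma), but no fold is given against a group listed at 0.

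GBP5 and GBP6 had a mean under 0.5 FPKM in both CON and GA, so they entered the test only through the GB libraries. Without any filter on low values all 3 members were still called in both comparisons with GB. GBP4 would have passed the filter on its CON or GA values alone. Of the 8 other GBP genes tested, LOC512486 and LOC511531 would also have passed on those values, while the other 6 entered only through GB.

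The hormones alone gave no call among the GBPs. In GA vs. CON limma called 0 of 3 members and 0 of the 8 other GBP genes that could be tested, where 0.0716% of all genes were called (0.0318% higher and 0.0398% lower in GA), and none of the 11 had an unadjusted p under 0.05, which 19.3% of all tested genes had. The log2FC of GBP4 was −0.16 (SE 0.19, adjusted p = 0.679, limma), and its sign turned without GA3, to 0.040. That of GBP5 was 0.44 (SE 0.27, adjusted p = 0.387, limma) and came to 0.19 without GA3, the library with the highest GBP5 value outside GB, and to 0.21 without CON1, where GBP5 was listed at 0. That of GBP6 was −0.19 (SE 0.19, adjusted p = 0.621, limma) and rested on CON3 alone. With standard errors of this size a modest change of GBP4, GBP5 or GBP6 would not have been detectable at these levels.

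The proportions of the members to each other were similar across the GB libraries, and closest to constant for GBP5 and GBP6. GBP4 was 3.45, 3.99 and 3.44 times GBP5 in GB1, GB2 and GB3, and GBP5 was 3.24, 3.19 and 3.28 times GBP6. The higher GBP4 to GBP5 ratio of GB2 came with the lowest GBP5 value and the highest GBP4 value of the group. The coefficient of variation in GB was 1.22% for GBP4, 7.70% for GBP5 and 6.41% for GBP6. The FPKM of the 3 members do not overlap with each other in GB, so their order of GBP4, GBP5 and GBP6 held in each of these libraries.

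Of the 9 further GBP genes 8 could be tested, and 7 of these were called higher in GB against each of the other groups. The most abundant was LOC512486, which the RefSeq table names GBP1, the member through which human GBPs begin to coat bacteria. Its CON libraries read 1.84, 1.44 and 1.18 FPKM and its GA libraries 1.74, 1.91 and 1.56. In GB it read 181, 193 and 185 FPKM, above GBP4 in each library. Its log2FC was 6.57 in GB vs. CON (SE 0.12, adjusted p = 3.8e-10, limma) and 6.39 in GB vs. GA. LOC507055, described as a guanylate-binding protein 4, was at 130, 132 and 136 FPKM in GB, a range that overlaps that of GBP4, but its highest value without IFNT was 0.46 FPKM. Its log2FC of 7.19 in GB vs. CON (SE 0.094, adjusted p = 8.0e-11, limma) and 7.30 in GB vs. GA exceeded that of each member.

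LOC511531, described as a guanylate-binding protein 1, reached 67.5 to 71.3 FPKM in GB, and LOC100336669, described as a guanylate-binding protein 4, reached 39.6 to 40.4 FPKM, a range that overlaps that of GBP5. Below GBP6 came LOC781710, described as a guanylate-binding protein 2, at 6.86 to 7.94 FPKM. LOC783604 and LOC100336443, both described as a guanylate-binding protein 4, reached 3.14 to 3.46 and 2.39 to 3.83 FPKM and overlapped each other. LOC783604 had the smallest rise among the called genes of the family, with a log2FC of 2.22 against CON and 2.10 against GA, and a GB mean 10.4 times that of CON. The called genes of the family were thus all higher in GB. Their log2FC differed widely, but for genes near 0 without IFNT it depends on the pseudocount. In GB vs. CON the log2FC of LOC100336443 was 2.81, 4.79 with a pseudocount of 0.1 and 2.02 with a pseudocount of 1.

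A further pair of genes gave no call, and for the first of these a single library decided it. LOC112445998, described as a guanylate-binding protein 1-like gene, was listed at 0 in all 6 libraries without IFNT and at 1.87, 0 and 3.56 FPKM in GB (adjusted p = 0.0605 against CON and 0.0670 against GA, limma). Without GB2 it was called in both (adjusted p = 4.5e-04 and 5.2e-04, limma). LOC513659, described as a guanylate-binding protein 6, was at 0 in the 6 libraries without IFNT and at 0.51, 0.83 and 0.80 FPKM in GB, and its mean was too low for the test.

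**Figure D2:**
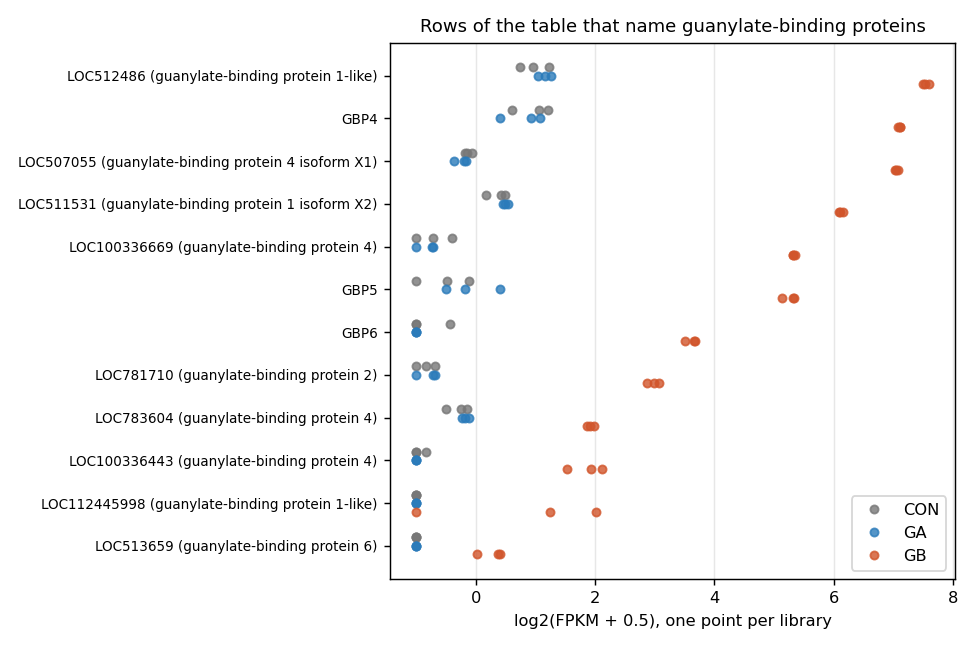
FPKM of the 12 GBP genes on a log2(FPKM + 0.5) axis, with 1 point per library and the genes ordered from the highest to the lowest mean in GB. The GB points are separated from the CON and GA points in every row but that of LOC112445998, where GB2 sits at 0.

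Summed over the 12 genes, GBP transcripts came to 4.98 ± 0.376 FPKM (SD, n = 3) without treatment, 5.27 ± 0.172 FPKM with hormones and 631 ± 6.02 FPKM with hormones and IFNT. The CON range of 4.73 to 5.41 FPKM and the GA range of 5.09 to 5.43 FPKM overlapped. The 3 members made up 29.1% to 29.9% of the sum in GB, so that most of the GBP signal of these cells lay in genes without a GBP symbol. LOC512486 alone gave 29.5% of the mean sum in GB, GBP4 gave 21.7% and LOC507055 gave 21.0%, while GBP5 gave 6.02% and GBP6 gave 1.86%. The genes are close relatives, and reads that fit several of them may have been divided among them by RSEM, so the levels and shares of single genes are uncertain.

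In the RefSeq table, which is of a later assembly than the one used for the files and was used only for names and order, 11 of the 12 genes could be placed, all on chromosome 3 and within a stretch of 24 annotated genes. The match of GBP4 was by symbol only, those of GBP5 and GBP6 by protein accession and the others by gene ID. GBP6, GBP5 and LOC512486 (GBP1) stand close together, with GBP4 further along and LOC100336669, LOC507055 and LOC511531 toward the far end. The level in GB did not follow this order, since LOC781710 at 7.42 FPKM stood between LOC512486 at 186 and GBP4 at 137. Of the other genes in the stretch 4 had a row in the table. None of them is described as a guanylate-binding protein, and they were named after their values were seen. LOC786372, described as a trichohyalin isoform and placed between LOC513659 and GBP6, was at 0.05 FPKM in CON3, at 0 in the 5 other libraries without IFNT and at 4.55, 4.33 and 5.07 in GB (adjusted p = 9.7e-07 against CON and 8.5e-07 against GA, limma). LOC786372 entered the test only through its GB values. LOC112445995 is described as rCG28728-like, which names no protein family. It was at 0 in the 6 libraries without IFNT and at 0.98, 0.77 and 1.53 FPKM in GB, and was too low to be tested. The remaining pair, LOC112445996 and LOC785445, are both described as heterogeneous nuclear ribonucleoprotein A1-like and did not exceed 0.35 FPKM in any library.

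**Figure D3:**
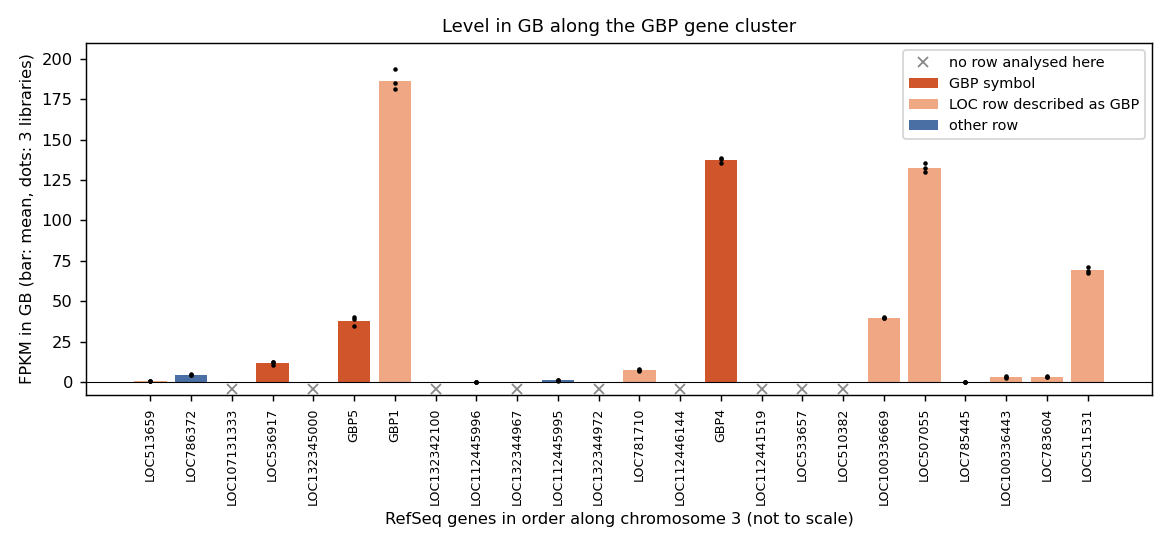
Mean FPKM in GB (bars, linear axis) with the 3 GB libraries (dots) for the genes in RefSeq order along the GBP stretch of chromosome 3, not to scale, where crosses mark RefSeq genes with no row analysed here. The tallest bars are GBP1 (LOC512486), GBP4 and LOC507055, and the bar of LOC536917 is the GBP6 row.

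Genes that act before, with or after GBPs were taken from 6 lists. Of 73 tested genes in these lists, limma called 18 higher and 1 lower in GB in each of the comparisons with GB. Among all tested genes the called share, in either direction, was 3.64% with GA as the reference and 4.01% with CON. In GA vs. CON 0 of the 73 were called, beside 0.0716% of all tested genes. There 16 of the 73 had an unadjusted p under 0.05, as did 19.3% of all tested genes. Against GA the median log2FC of the 73 list genes was 0.093, beside −0.075 for all tested genes. Among the called genes MX2, ZBP1 and IRF8 had a mean under 0.5 FPKM in both CON and GA. They entered the test only through GB, and IRF8 is named here after its values were seen. Called were 4 of the 8 tested genes of the inflammasome list, which names 15 genes. In the interferon signalling list 8 were called higher and 1 lower of 19 tested. The share was smaller in the other lists, and 0 genes were called in 2 of them.

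Interferon signalling genes stand upstream of GBP transcription. IRF1 is a transcription factor known for driving GBP promoters, and IRF9 is the DNA-binding subunit of the ISGF3 complex of type I interferon signalling. Of 19 tested genes of this list 8 were called higher and 1 lower in GB vs. GA, with a median log2FC of 0.24. IRF1 libraries read 16.6, 18.5 and 16.5 FPKM for CON, 15.8, 13.1 and 17.4 for GA and 76.7, 88.4 and 83.8 for GB, a log2FC of 2.40 in GB vs. GA (SE 0.10, adjusted p = 1.5e-07, limma). The log2FC of IRF9 in GB vs. GA was 2.19, and it reached 109 ± 3.55 FPKM (SD, n = 3) in GB. IRF9 was already at 22.65 FPKM or more in the libraries without IFNT, where the GBPs were near 0. The largest rise of the list was that of USP18, a brake on type I interferon receptors, with a log2FC of 6.88, followed by SOCS1, a JAK inhibitor, with 2.56. The single gene called lower, named after its values were seen, was IFNAR1, a subunit of the type I interferon receptor, which fell from 36.6 ± 1.31 FPKM in GA to 14.2 ± 1.57 in GB (log2FC −1.34, adjusted p = 4.2e-06, limma). IFNGR2, a subunit of the interferon gamma receptor and the most abundant gene without a call, was at 136 ± 11.4 FPKM in GA and 122 ± 2.80 in GB.

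Among other GTPases of the dynamin superfamily, 2 of 12 tested genes were called, both higher in GB. They were the antiviral GTPases MX2 (log2FC 10.29 in GB vs. GA) and MX1 (7.64), which reached 757 and 1572 FPKM in GB. The median log2FC of the list was 0.059. ATL3, an atlastin that shapes the endoplasmic reticulum and the most abundant gene of the list without a call, read 118, 117 and 123 FPKM for CON, 131, 128 and 134 for GA and 228, 235 and 232 for GB. Its GB values lay above all the others, but the log2FC of 0.82 in GB vs. GA (adjusted p = 2.9e-07, limma) and 0.96 in GB vs. CON did not pass the threshold on fold change.

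Of 8 tested inflammasome and pyroptosis genes 4 were called higher in GB vs. GA, with a median log2FC of 0.99. ZBP1, a sensor of Z-form nucleic acids, rose most, from 0.31, 0.30 and 0.18 FPKM in GA to 115, 115 and 114 in GB (log2FC 7.24, SE 0.22). CASP4, the caspase that human GBPs recruit to bacterial lipopolysaccharide, rose from 49.0 ± 0.235 FPKM in GA to 270 ± 15.2 in GB (log2FC 2.45, adjusted p = 9.9e-10, limma). CASP8, an initiator caspase of death receptors, had a log2FC of 2.27 and GSDMD, the pore-forming substrate of inflammatory caspases, one of 1.28. IL18, a cytokine that inflammasomes mature, was at 26.8 ± 3.25 FPKM in CON, 36.6 ± 4.26 in GA and 51.6 ± 2.18 in GB without a call. Its log2FC of 0.49 in GB vs. GA (adjusted p = 0.0068, limma) and 0.94 in GB vs. CON (adjusted p = 1.4e-04, limma) did not pass the threshold on fold change. NLRP3, the sensor with which GBP5 has been linked, was too low to be tested, with mean FPKM of 0.353 (CON), 0.327 (GA) and 0.130 (GB).

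None of the 9 genes that make, attach or process the isoprenoid anchor of CaaX proteins was called in any comparison by limma. In GB vs. GA 1 of them had an unadjusted p under 0.05, which 40% of all tested genes had, and their median log2FC was −0.015. FDPS, a farnesyl diphosphate synthase and the most abundant, had means of 124 ± 4.90 (CON), 128 ± 9.72 (GA) and 124 ± 2.51 FPKM (GB, SD, n = 3).

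Of 22 tested genes that detect damaged vacuoles, coat them with ubiquitin or deliver them to autophagy, 4 were called higher in GB vs. GA. Among all tested genes 2.66% were called higher there. The median log2FC of the 22 was 0.053, and 16 of them had an unadjusted p under 0.05 (limma), beside 40% of all tested genes. LGALS9, a galectin, rose from 0.64, 0.22 and 0.95 FPKM in GA to 76.8, 65.1 and 73.5 in GB (log2FC 6.09, SE 0.24). TRIM21, a ubiquitin ligase and antibody receptor of the cytosol, had a log2FC of 4.70, CALCOCO2, an autophagy receptor, one of 2.07, and RBCK1, a subunit of the linear ubiquitin ligase complex, one of 1.84. LGALS3, a galectin that binds exposed vacuole glycans, was the most abundant gene without a call, at 2973 ± 74.8 FPKM in GA and 2461 ± 71.4 in GB. Its log2FC of −0.27 in GB vs. GA (adjusted p = 0.0034, limma) did not pass the threshold on fold change. Of the 3 tested single partners of human GBPs none was called by limma, beside 3.64% of all tested genes in GB vs. GA. All 3 had an unadjusted p under 0.05 in GB vs. GA, as did 40% of all tested genes, and they differed in direction. FURIN, a protease that human GBP2 and GBP5 inhibit, was at 93.4 ± 2.68 FPKM in GA and 78.0 ± 3.87 in GB. APOL3, an apolipoprotein L that acts on bacteria after GBPs have coated them and is named here after its values were seen, read 0.67, 0.32 and 0.70 FPKM for GA and 1.46, 2.11 and 0.96 for GB (log2FC 0.90, adjusted p = 0.0266, limma).

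**Figure D4:**
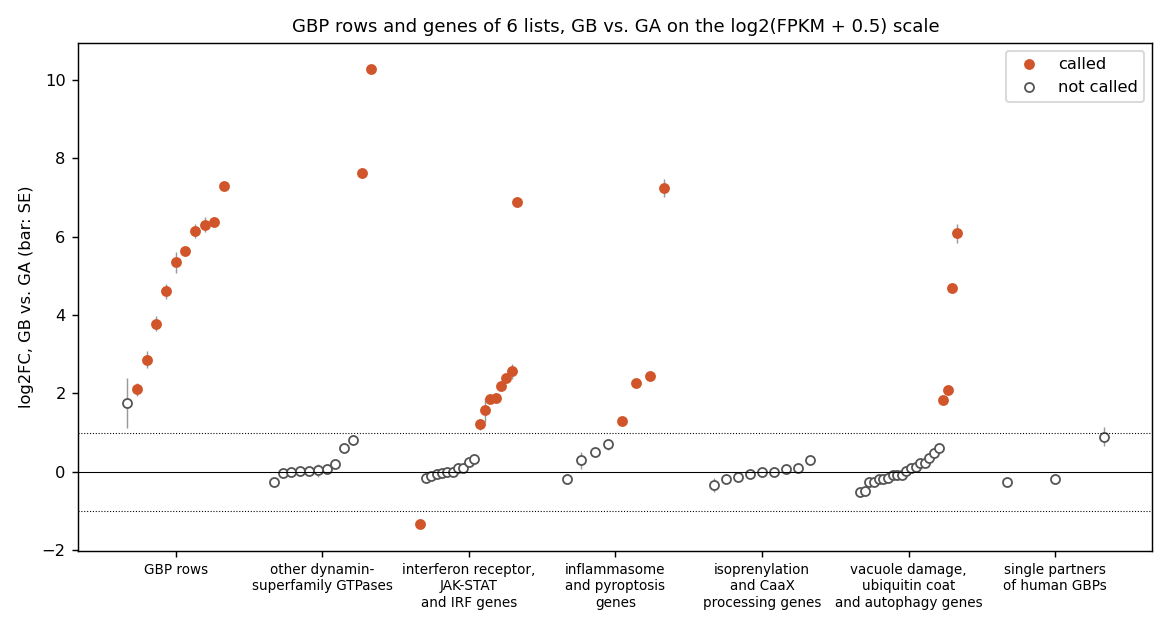
log2FC of GB vs. GA on the log2(FPKM + 0.5) scale, with SE bars, for the tested GBP genes and the tested genes of 6 lists, where filled points passed both thresholds and dotted lines mark a log2FC of 1 and −1. Of the 11 GBP points 10 are filled, while most points of the other lists are open and lie near 0.

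Genes with values most like those of each member were found by the root mean square difference of log2(FPKM + 0.5) over the 9 libraries, after each gene was centred on its own mean, among 12567 tested genes outside the family. This is a description, and since GB stands apart for 1640 tested genes it mainly sorts them by their rise on this scale. For genes near 0 without IFNT, such as GBP5 and GBP6, that rise depends on the pseudocount of 0.5. Closest to GBP4 were OAS2 (0.27 log2 units), RTP4 (0.29) and IFIT3 (0.30). OAS2 was listed at 0 in all CON libraries, at 0.04, 0 and 0.05 FPKM in GA and at 41, 39.6 and 37.8 in GB. It entered the test only through GB, and its distance to GBP4 depends on the pseudocount. Closest to GBP5 were PSMB9 (0.25), SLC15A3 (0.32) and DDX58 (0.33). SLC15A3, with means of 0.187 FPKM in CON and 0.217 in GA, also entered the test only through GB. PSMB9 read 0.88, 1.07 and 2.13 FPKM for CON and 1.62, 1.79 and 2.68 for GA, where GA3 was the highest library without IFNT, as for GBP5. Closest to GBP6 were TAP1 (0.15), TRIM21 (0.16) and PARM1 (0.19), whose levels were far higher, with 191 FPKM for TAP1 in GB. The distances between members were 0.59 for GBP4 and GBP5, 0.61 for GBP5 and GBP6 and 0.83 for GBP4 and GBP6. The genes named above were picked as the closest of the 12567. Their smaller distances were thus largely set by that choice, and no conclusion is drawn from the comparison with the member pairs.

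**Figure D5:**
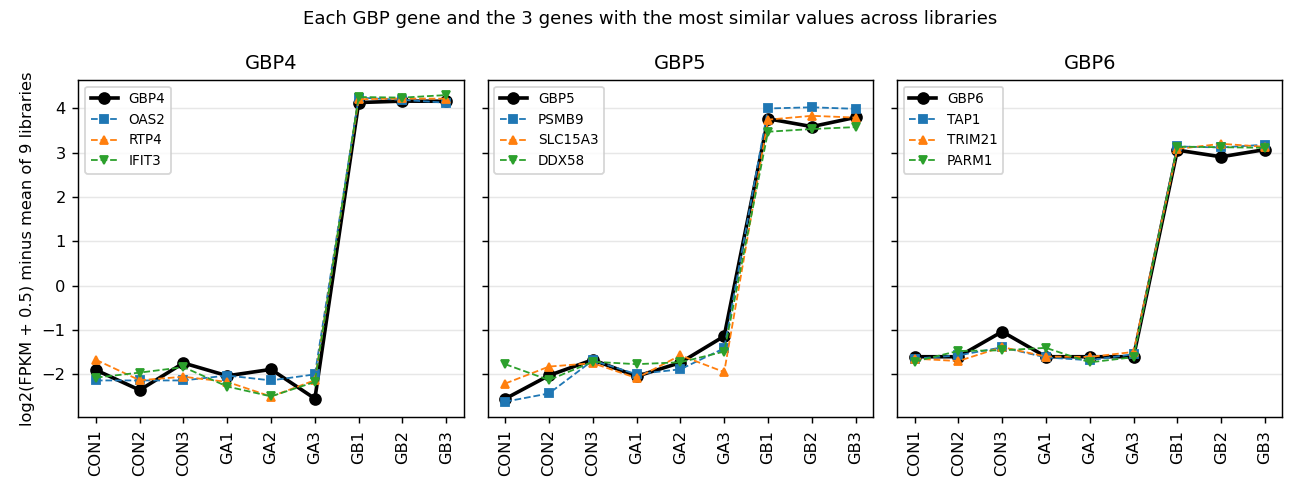
log2(FPKM + 0.5) minus the mean of the 9 libraries for each GBP gene (black) and the 3 genes with the most similar values, by library. Every line steps up from the CON and GA libraries to the GB libraries.

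GBPs are also expressed by macrophages and endothelial cells, and markers of these cells were examined. The 4 analysed macrophage markers CD14, CD68, CD163 and CSF1R had CON sums of 25.2 to 27.7 FPKM, GA sums of 26.6 to 28.4 and GB sums of 30.2 to 35.9. Of these CD163 was called higher in GB (1.89 ± 0.0557 FPKM in GA and 9.23 ± 0.172 in GB, n = 3). CD14 and CD68 were without a call, and CSF1R, the defining receptor, was at a mean of 0.347 FPKM in GB against 0.543 in CON. The 5 endothelial markers PECAM1, CDH5, KDR, VWF and TEK had CON sums of 1.68 to 2.45 FPKM, GA sums of 1.57 to 1.79 and GB sums of 2.27 to 3.44, and PECAM1, VWF and TEK did not reach 0.5 FPKM in any library. KDR, too low to be tested, read 0.05, 0.10 and 0.02 FPKM for CON, 0, 0.11 and 0 for GA and 0.42, 0.25 and 0.60 for GB, so its GB libraries lay above all the others. CDH5 was without a call, with means of 1.43 FPKM (CON), 1.01 (GA) and 1.94 (GB) and a log2FC of 0.68 in GB vs. GA (adjusted p = 0.0395, limma). More cells of a type and more RNA per cell cannot be told apart in bulk RNA, and the part of these cells in the GBP values was not tested.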

How the data were processed

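RNA from 9 BEND cultures was sequenced as directional poly-A libraries. Per the methods and the submitters' processing notes, the authors trimmed reads with fastp 0.21.0, removed rRNA reads with Bowtie2, aligned the rest to ARS-UCD1.2 with HISAT2 2.2.1 and counted reads per gene with RSEM 1.3.3. What was deposited is FPKM, computed by the authors for each gene in each library and rounded to 2 decimals. No source used here names the annotation release or the strand setting of the counting. All 9 columns could be assigned to samples by their labels. Read depth per gene is unknown.

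In R 4.3.3 a limma 3.58.1 model with a mean per group and a variance trend was fitted to log2(FPKM + 0.5) of the 12578 genes with a mean of at least 0.5 FPKM, with Benjamini-Hochberg adjustment over all of them. The authors' own test, DESeq2 on read counts, could not be repeated on FPKM. The scripts were tested on simulated data. With 3 libraries against 3, an exact permutation test cannot give a p under 0.1. Alternatives were other pseudocounts, filters and scalings, no variance trend, a replicate block and each library left out. Figures were drawn with matplotlib 3.10.9.

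The members and lists were chosen with earlier results of these data known. Named are the GBP rows, up to 5 called genes with the largest change in GB vs. GA and the most abundant uncalled gene of each list, 3 nearest genes per member, the markers, and genes said to be named after their values were seen. The 9 LOC rows were found through the descriptions in the deposited table. The list genes IRGM, GVINP1, CASP1, AIM2, NLRP1, IL1B and RNF213 were not analysed here, nor were the markers PTPRC, CD3E and EPCAM. A called gene of the interferon signalling list that the rule would name is not reported here. No read-level or sequence data of the GBP genes were used here.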

Additional observations from a re-analysis of the deposited data

How the results depend on the processing

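All 3 members were called higher in GB than in CON and than in GA, and 0 in GA vs. CON, under every alternative run, each library left out included. The other GBP genes called in either comparison with GB numbered 7 to 8, with 8 reached without a filter on low values or without GB2, and the pathway genes called numbered 18 to 20 (main 19). The alternatives for the other GBP genes were chosen after seeing the data. The sign turned only in GA vs. CON, where nothing was called. GBP4 ran from −0.33 to 0.040 with each library left out, LOC100336669 from −0.26 to 0.040, and LOC781710 from −0.038 to 0.14. With quantile normalization LOC781710 was at −0.13, the cause of which was not tested. LOC112445998 gave no value with a filter at a mean FPKM of 1, or without GB1 or GB3, since its mean then fell under the filter. The values do not settle whether replicate numbers pair the samples. Same-numbered libraries had deviations correlated at −0.031 to 0.077, and 6 of 9 libraries correlated best with a library of their own number. With the replicate block 3, 3 and 0 members, 7, 7 and 0 other GBP genes and 19, 19 and 0 pathway genes were called in GB vs. CON, GB vs. GA and GA vs. CON, so the block changed no count. Levels under about 1 FPKM rest on an unknown and possibly small number of reads, which limits what can be said of GBP5 and GBP6 without IFNT. Groups of 3 were not screened for outlying libraries.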
